A study of Citrullus lanatus with 12 samples.

Results

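Late anthers of watermelon (Citrullus lanatus), at the dikaryophase and the mature stage, were compared with early anthers, at the tetrad and the mononuclear stage. The comparison took in all 12 RNA sequencing libraries of the series, 6 late and 6 early, with 3 libraries per stage. It was set as the mean of both late stages minus the mean of both early stages, in a fit with 1 mean per stage and over all genes. The plants were progeny of the variety Xinteda Zhengkang 9, grown in a greenhouse, and no treatment or genotype separated the groups. Stage was the only difference the labels give. Each anther was staged under the microscope on a portion of its tissue, and RNA was extracted from the rest.

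In flowering plants, meiosis in the anther gives tetrads of haploid cells, which are released as microspores with a single nucleus. An asymmetric division then makes a bicellular grain with a vegetative and a generative cell, and the grain takes up reserves and dries before it is shed. The tapetum, the innermost layer of the anther wall, feeds the microspores, supplies material for the pollen wall and breaks down as pollen matures. An anther library therefore mixes RNA of pollen, tapetum and the outer wall. In such bulk samples, a smaller number of cells of a type and less RNA per cell cannot be told apart. The table lists gene IDs without names, so no gene is given a function here, and markers of these cell types could not be checked.

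Library totals lay between 55347640 and 65554998 reads assigned to genes, and CPM scales a read count to 1000000 reads of its library. Of 23440 genes listed, 2620 had no read in any library. A further 3336 had reads but did not reach 1 CPM in at least 3 libraries, and the other 17484 genes were tested. The labels do not say whether libraries of a stage came from different plants, so p-values measure the spread between these samples, which may be technical.

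Late and early anthers differed in 2391 of 17484 tested genes (13.7%). Of these, 1288 genes rose in late anthers, which is 7.37% of the genes tested, and 1103 fell, which is 6.31%. A gene was called when its limma test gave a Benjamini-Hochberg adjusted p under 0.05 and its mean log2 level differed by at least 1, a 2-fold change. Rises had the larger median size. The median log2 fold change was 2.23 among the genes that rose and -1.76 among those that fell, beside a median of -0.0048 over all tested genes. A change of at least 4-fold was reached by 715 rising genes (55.5%) and by 460 falling genes (41.7%), and one of at least 32-fold by 257 rising genes (20%) and 115 falling genes (10.4%). The adjusted p alone was passed by 7154 genes (40.9%), of which 4763 changed by less than 2-fold. Rises made up 53.9% of all calls. This share depended on scaling, and was 57.8% when libraries were scaled by their totals alone and 48.2% after quantile normalisation.

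**Figure D1:**
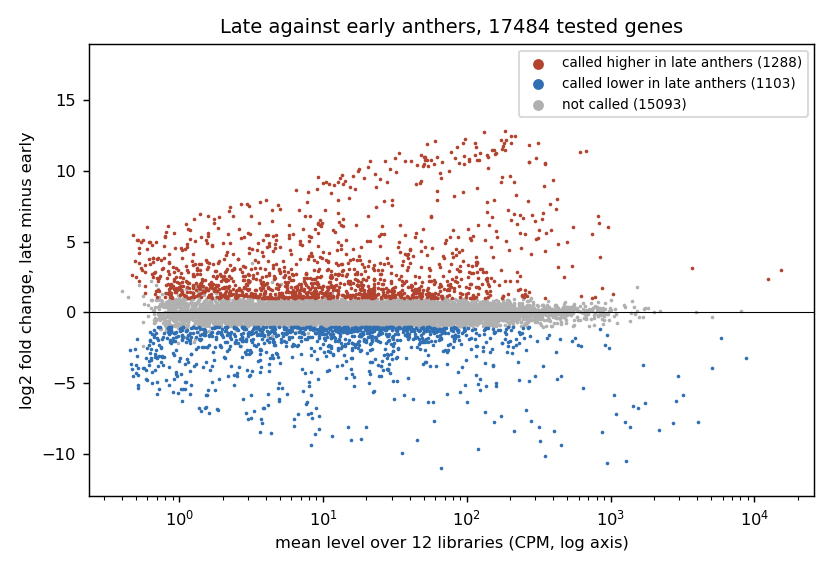
Each point is 1 of 17484 tested genes, with its mean level over 12 libraries in CPM on a log axis and its log2 fold change, late minus early anthers. The 1288 genes called higher reach up to 12.82 and the 1103 genes called lower reach down to -10.98, while the 15093 genes that were not called lie mostly near 0.

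The balance of rises and falls changed with abundance. Among the 47 genes with a mean of at least 1000 CPM over the 12 libraries, 18 fell (38.3%) and 4 rose (8.51%). Between 1 and 10 CPM the order was the other way, with 543 rises (11.7%) and 410 falls (8.84%) among 4636 genes. Between 10 and 100 CPM they were about equal, 481 rises (4.72%) and 472 falls (4.63%) among 10187 genes. Between 100 and 1000 CPM rises again outnumbered falls, by 166 (7.52%) to 101 (4.57%) among 2208 genes. Of the 406 tested genes with a mean under 1 CPM, 48.3% were called. Such genes pass the filter only where some libraries hold more than the others, so this share is set in part by the filter. Genes that rose had a median level of 17.2 CPM in late and 2.33 CPM in early anthers, and genes that fell had 4.08 CPM in late and 18.9 CPM in early anthers.

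For a part of the genes the change held in every library. The 6 late libraries all lay above the 6 early ones in 1295 tested genes (7.41%), and all below them in 1053 (6.02%). Among called genes, the groups did not overlap in 790 of the 1288 that rose (61.3%) and in 552 of the 1103 that fell (50.0%). Order of the stage means is a weaker condition, which every gene without overlap meets, so its counts cannot be smaller. Both late means lay above both early means in 1182 rising genes (91.8%), and below both in 1014 falling genes (91.9%). In the other 106 and 89 genes, the contrast was called although a late stage mean was not beyond an early one. None of the 4 rising genes at 1000 CPM or more had groups free of overlap, against 14 of the 18 falling genes at that level.

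No gene met a strict rule for presence in one group and absence in the other. With at most 3 reads counted as off in each library, and at least 10 CPM as on, 0 genes were off in all 6 early libraries and on in all 6 late ones, and 0 showed the reverse. Mononuclear replicate 2 set the first of these counts: without it, 20 genes were off in early and on in late anthers. Without dikaryophase replicate 3 there were 6, and without tetrad replicate 2 or 3 there was 1. No read at all was found in the 6 early libraries for 19 of the 1288 rising genes (1.48%). The same held in the 6 late libraries for 11 of the 1103 falling genes (0.997%). Such genes pass the filter only through the group where they have reads, so their direction is set by the filter. The share over all tested genes was not computed.

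Most rising genes were highest in mature anthers and lowest in tetrad anthers. The mature stage held the highest mean of 1067 rising genes (82.8%) and the dikaryophase that of 203 (15.8%). The lowest mean fell in tetrad anthers for 1000 of them (77.6%) and in mononuclear anthers for 288 (22.4%). Falling genes were the mirror image in part. Of these, 837 were lowest in mature (75.9%) and 259 in dikaryophase anthers (23.5%), while 848 were highest in tetrad (76.9%) and 254 in mononuclear anthers (23.0%). Stage means moved one way through all 4 stages, with ties allowed, in 776 rising genes (60.2%) and 594 falling genes (53.9%). The call itself favours a rising gene with its highest mean in a late stage and its lowest in an early one. The reverse holds for falling genes, so these shares follow in part from the call. They were not computed over all tested genes.

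Rising genes changed most often between the mononuclear stage and the dikaryophase. This step was the largest of the 3 steps between neighbouring stages in 630 rising genes (48.9%), against 38.6% of the 8644 tested genes with a fold change above 0. In falling genes the first and middle steps were largest in similar numbers. The middle step was largest in 433 (39.3%), against 35.3% of the 8840 tested genes with a fold change below 0, and the step from tetrad to mononuclear in 423 (38.3%). Their order turned with library size as the only scaling, to 353 for the middle and 433 for the first step, and without mononuclear replicate 2, to 361 and 441. The contrast itself counts the middle step with a weight of 1 and each outer step with 0.5, so calling favours genes that change in the middle. The median steps of rising genes, in log2 units, were 0.78 from tetrad to mononuclear, 1.38 from mononuclear to dikaryophase and 0.94 from dikaryophase to mature. Those of falling genes were -0.93, -1.05 and -0.54 in the same order, and over all tested genes each median lay between -0.01 and 0.01. The last step was the largest in 256 rising genes (19.9%), and in 163 without dikaryophase replicate 3.

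**Figure D2:**
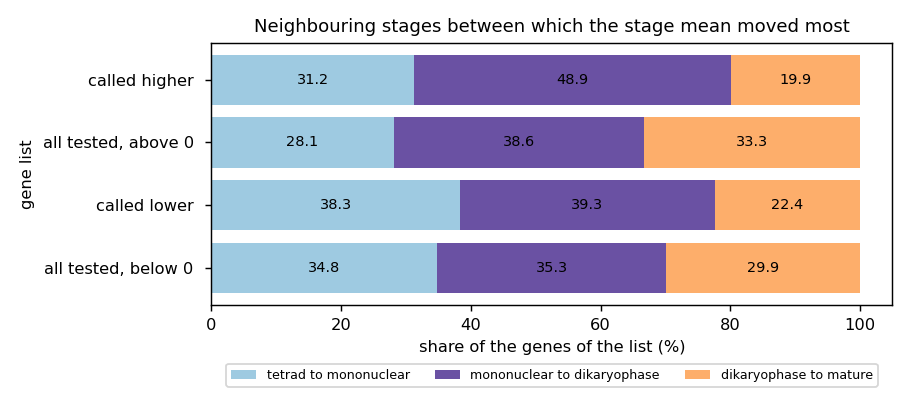
Bars give, for each gene list, the share of genes (%) whose stage mean moved most between tetrad and mononuclear, mononuclear and dikaryophase, or dikaryophase and mature anthers, in the direction of their fold change. The middle step is the largest in 48.9% of the genes called higher. In genes called lower it stands at 39.3% beside 38.3% for the first step, an order that turns with library size as the only scaling and without mononuclear replicate 2. Each list is shown above all tested genes with a fold change of that sign.

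Few genes switched cleanly between the groups. Stage means differed by less than 0.5 log2 units within late and within early anthers in 68 rising genes (5.28%) and 71 falling genes (6.44%). The 3 with the largest rise among those at 10 CPM or more whose groups did not overlap had log2 fold changes of 2.07 to 3.09. The 3 with the largest fall had log2 fold changes of -4.70 to -3.79. The largest of these rises was uneven at maturity, with 60.5, 48.7 and 8.09 CPM in mature replicates 1 to 3. It averaged 20.9 ± 2.47 CPM at the dikaryophase (SD, n = 3), so its late stage means were close only because of mature replicate 3. The clearest of these falls averaged 9.69 ± 2.32 CPM at the dikaryophase and 9.09 ± 2.60 CPM at maturity (SD, n = 3 each), against 223 ± 71.1 CPM in tetrad and 249 ± 79.6 CPM in mononuclear anthers. The even levels of this gene within late and within early anthers follow from the rule by which it was chosen. A difference of stage means within a group against the direction of the call was more common. Among rising genes, the mature mean was below the dikaryophase mean in 217 (16.8%), and the mononuclear mean below the tetrad mean in 288 (22.4%).

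The called genes, as sets, were also high or low in libraries that had no part in calling them. For each library in turn, the genes called in a fit without it were read in that library alone. The other libraries of its stage stayed in that fit, so these shares are not independent support for the calls. The lists differed between fits, with 1211 to 1296 rising and 996 to 1157 falling genes. The rising genes took 10.9% to 18.7% of the reads of a late library, with a median of 13.2%, against 1.08% to 7.86% of those of an early library, with a median of 3.32%. The falling genes took 1.31% to 4.53% of the reads of a late library, with a median of 2.18%, against 11.8% to 19.2% in an early library, with a median of 15.6%. The late and early libraries did not overlap for either set.

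Within the groups the stages differed in these shares. In stage order, the share of the rising genes was 1.10% ± 0.0271 in tetrads, 6.55% ± 1.20 in mononuclear anthers, 12.2% ± 1.10 in those of the dikaryophase and 16.3% ± 2.63 in mature ones (SD, n = 3 each). The falling genes took 16.8% ± 2.16, 13.9% ± 2.21, 3.71% ± 0.870 and 1.44% ± 0.131 in the same order. Mononuclear replicate 2 held the highest median log2 level of its stage in both sets, 7.70 for the rising genes and 9.94 for the falling ones, against 7.25 and 9.15 in mononuclear replicate 1 and 7.43 and 9.42 in mononuclear replicate 3. Its share of reads in the rising genes was the lowest of its stage, at 5.50%. Mature replicate 3 had the lowest such share of its stage, 13.5%, against 18.7% and 16.8% in mature replicates 1 and 2, and was close to the 12.9% of dikaryophase replicate 2.

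**Figure D3:**
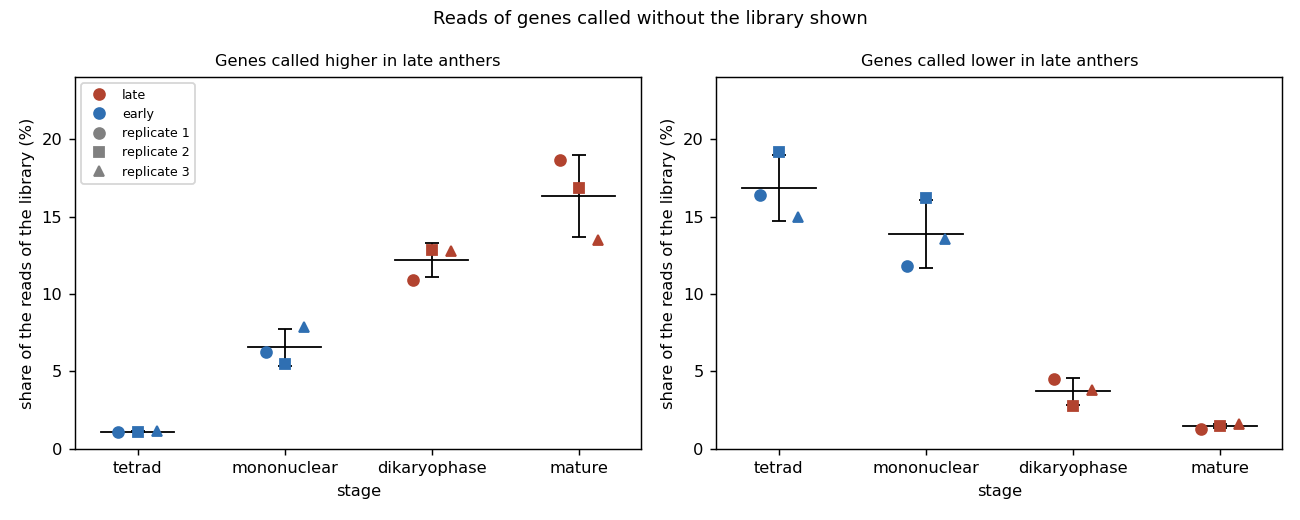
Points are libraries, with replicates 1 to 3 as circles, squares and triangles, and give the share of a library's reads (%) in genes called higher (left) or lower (right) in late anthers by a fit that left that library out. Lines and bars are the mean and SD of a stage (n = 3). Late libraries lie at 10.9% to 18.7% on the left and 1.31% to 4.53% on the right, and early ones at 1.08% to 7.86% and 11.8% to 19.2%.

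The 2 genes with the largest rise had reads in 1 early library each. Cla004436 had a lowest level of 44.0, a median of 352 and a highest level of 727 CPM in late libraries, while 5 of the 6 early libraries had no read of it. Its 71 early reads were all in mononuclear replicate 2, at 1.22 CPM. Its log2 fold change was 12.82 ± 0.93 (SE of the fit, limma adjusted p = 8.32e-07). This difference of mean log2 levels exceeds the ratio of mean CPM, 1808, because the early reads sat in a single library. Its size also depends on the pseudocount, and was 15.59 with a pseudocount of 0.1 in place of 1. Within late anthers Cla004436 averaged 116 ± 62.9 CPM at the dikaryophase and 621 ± 94.6 CPM at maturity (SD, n = 3 each). Most of its late reads thus came from the mature stage.

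Cla006625 had 21.9 to 633 CPM in late libraries, with a median of 170 CPM, and 8 reads in all in early ones, all of them in tetrad replicate 3. Its log2 fold change was 12.77 ± 0.62 (limma adjusted p = 4.67e-08). The lowest late level of both genes was that of dikaryophase replicate 3. The 6 genes with the largest rise, chosen among those at 10 CPM or more whose groups did not overlap, had log2 fold changes of 12.20 to 12.82. Their means were 195 to 435 CPM in late and 0.0221 to 2.72 CPM in early anthers. Mononuclear replicate 2 held 16.3 and 14.8 CPM of 2 of these 6 genes, which had no read in mononuclear replicates 1 and 3.

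The 2 genes with the largest fall stood under 3 CPM in every late library. Cla011332 had 10 reads in all in late libraries, all at the dikaryophase, and no read in the 3 mature ones. In early libraries its level ran from 6.01 to 283 CPM with a median of 121 CPM. The early stages did not overlap for this gene, with means of 245 ± 38.2 CPM in tetrad and 17.8 ± 16.1 CPM in mononuclear anthers (SD, n = 3 each). Its log2 fold change was -10.98 ± 0.51 (limma adjusted p = 3.41e-08).

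Cla021877 had 0.160 to 2.52 CPM in late libraries, with a median of 0.902 CPM, against 248 to 4254 CPM in early ones, with a median of 1594 CPM. Every early library held at least 15636 reads of it and every late library at most 159. Its log2 fold change was -10.68 ± 0.50 (limma adjusted p = 3.71e-08). The 6 genes with the largest fall had log2 fold changes of -10.98 to -9.65. Their means were 0.0265 to 3.90 CPM in late and 70.2 to 2563 CPM in early anthers. The highest late level among the 6 was 13.7 CPM, in dikaryophase replicate 3, for a gene whose early libraries held 1486 to 3892 CPM.

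Among the most abundant called genes whose groups did not overlap, falling genes stood at higher levels than rising ones. This choice left out all 4 rising genes with a mean of 1000 CPM or more, whose groups overlapped. It kept 14 of the 18 falling genes at that level, so the comparison does not cover the most abundant rising genes. The 4 most abundant falling genes averaged 41.6 to 1569 CPM in late and 5414 to 8506 CPM in early anthers, with log2 fold changes of -7.72 to -3.96. The 4 most abundant rising genes averaged 1347 to 1845 CPM in late and 25.8 to 383 CPM in early anthers, with log2 fold changes of 1.71 to 6.83. The smallest change of these 4, a log2 fold change of 1.71, had 780 to 2017 CPM in late and 273 to 532 CPM in early libraries. CPM is not divided by gene length, so these levels compare shares of reads and not numbers of transcripts.

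Other abundant genes showed no call. Cla010539 had 3666 to 4471 CPM in late libraries, with a median of 4051 CPM, and 3242 to 4368 CPM in early ones, with a median of 3635 CPM. Its log2 fold change was 0.04 ± 0.12 (limma adjusted p = 0.808). Cla007101 had 1889 to 2871 CPM in late and 1835 to 2332 CPM in early libraries, with a log2 fold change of 0.09 ± 0.12 (limma adjusted p = 0.575). Late and early libraries overlapped widely in both. They were the most abundant of the genes that were not called and had a log2 fold change within 0.1 of 0. Over all tested genes the median SE of the log2 fold change was 0.12. It was 0.29 among rising and 0.26 among falling genes.

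**Figure D4:**
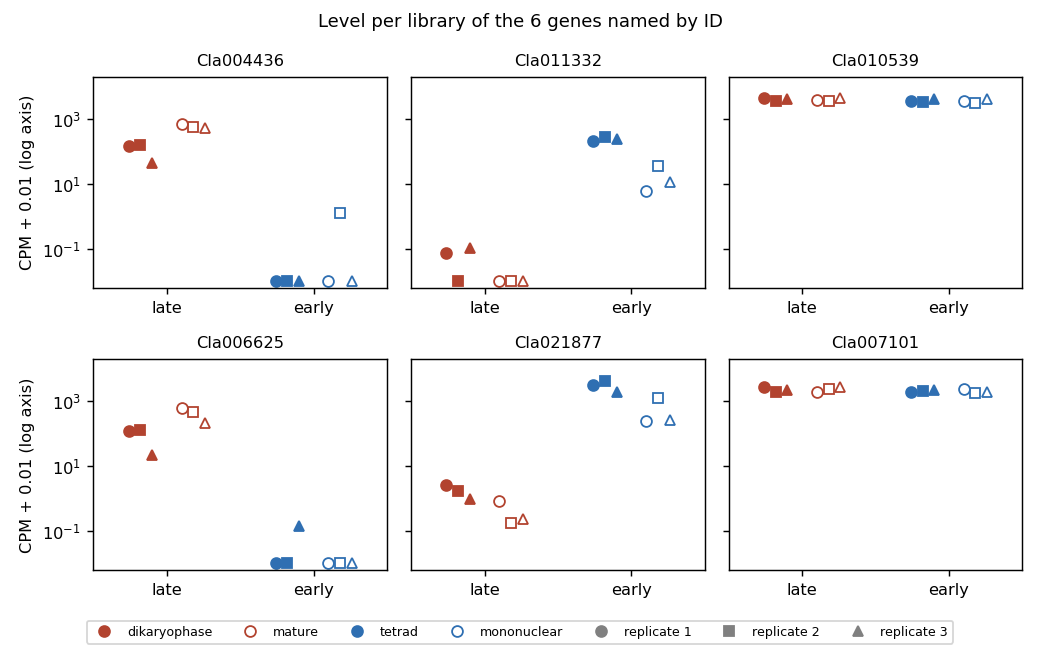
Level per library, as CPM plus 0.01 on a log axis, of the 2 genes with the largest rise (left column), the 2 with the largest fall (middle) and 2 abundant genes that were not called (right). Filled symbols are dikaryophase and tetrad libraries and open symbols mature and mononuclear ones. Late and early libraries stand apart in the first 4 genes and overlap at 1835 to 4471 CPM in the others.

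Late against early was the largest part of the squared differences between stages, summed over genes. The variation of the 4 stage means of a gene divides into 3 independent parts, one for each way to set 2 stages against the other 2. Summed over all tested genes, late against early accounted for 72.5% of the squared differences, the middle stages against both ends for 16.2%, and the mononuclear and mature against the tetrad and dikaryophase stages for 11.3%. The late against early part was the largest of the 3 in 9703 genes (55.5%), and the median gene had 50.5% of its squared differences there. Squares give genes with large changes the most weight. A gene that changes by equal steps through all 4 stages also has most of its squared differences in this part. The shares therefore do not tell a break between late and early anthers from a steady change.

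Some genes differed between stages and were not called between late and early anthers. A change over any stage was found in 7791 genes (44.6%, adjusted p under 0.05 in limma's F-test), and 2345 of them (30.1%) were called between the groups. In 1438 (18.5%) the late against early contrast did not pass the adjusted p at any fold. Of the genes with a log2 fold change within 0.1 of 0 and at least 10 CPM, the 3 with the largest F were taken as examples. The first averaged 119 ± 39.2 CPM at the dikaryophase and 16.9 ± 2.44 CPM at maturity, against 7.46 ± 1.86 CPM in tetrad and 222 ± 66.6 CPM in mononuclear anthers (SD, n = 3 each). The second averaged 80.4 ± 9.22 and 21.6 ± 4.97 CPM at the dikaryophase and maturity, against 22.0 ± 1.77 and 74.4 ± 14.5 CPM in tetrad and mononuclear anthers. Both were high in the middle stages, and the group means cancelled. The third was lowest in tetrad anthers, at 7.00 ± 0.434 CPM, and highest in mononuclear anthers, at 67.2 ± 13.2 CPM. It lay between these at the dikaryophase, at 22.5 ± 7.07 CPM, and at maturity, at 25.9 ± 2.95 CPM.

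At a threshold of 1 CPM, more genes were detected in late than in early anthers. This level was reached by 16759 to 16880 genes in late libraries, with a median of 16842, against 16514 to 16753 genes in early ones, with a median of 16586. The groups did not overlap. The mean difference was 225 genes (exact two-sided permutation test over 924 splits of 12 libraries, p = 0.00216, the smallest it can give; 0.00433 adjusted over the 2 library measures tested). The test treats the 12 libraries as independent, although each group holds 3 libraries of each of 2 stages. With the stage as the unit there are 2 stages against 2, too few for this test to give a small p-value. Mononuclear replicate 2 was the early library with the most genes, 6 short of the lowest late one. At 0.1 CPM the groups overlapped, with 18522 to 18689 genes in late and 18269 to 18682 in early libraries, and at 10 CPM likewise, with 11998 to 12366 and 11443 to 12179 genes. The mean differences were then 199 genes (exact permutation test, p = 0.0260, adjusted 0.0519) and 292 genes (p = 0.0368, adjusted 0.0736), which did not pass after adjustment. By stage, the means were 16864 ± 19.9 genes at the dikaryophase and 16795 ± 42.0 genes at maturity, against 16596 ± 16.9 in tetrad and 16614 ± 124 in mononuclear anthers (SD, n = 3 each).

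The 10 most abundant genes of a library took 5.38% to 9.22% of the reads of late libraries, with a median of 7.10%, and 6.78% to 13.6% of those of early ones, with a median of 9.50%. The groups overlapped, and the mean difference of -2.22 percentage points did not pass the test (exact two-sided permutation test, p = 0.117, which is also its adjusted value). This test too treats libraries as independent. Libraries of a group came from 2 stages, so differences between those stages are part of the spread in both tests. Stage means of this share were 8.65% ± 0.804 at the dikaryophase and 6.10% ± 0.618 at maturity (SD, n = 3 each). They were 7.14% ± 0.579 in tetrad and 12.0% ± 1.32 in mononuclear anthers (SD, n = 3 each). The tetrad mean was thus below that of the dikaryophase, and the early mean was raised by the mononuclear stage. The share of the 100 most abundant genes was likewise highest in mononuclear libraries, at 22.9% to 26.0%. With the 100 most abundant genes the difference was -4.35 points (exact permutation test, p = 0.0152), and with the single most abundant gene it was 0.597 points in the other direction (p = 0.199).

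**Figure D5:**
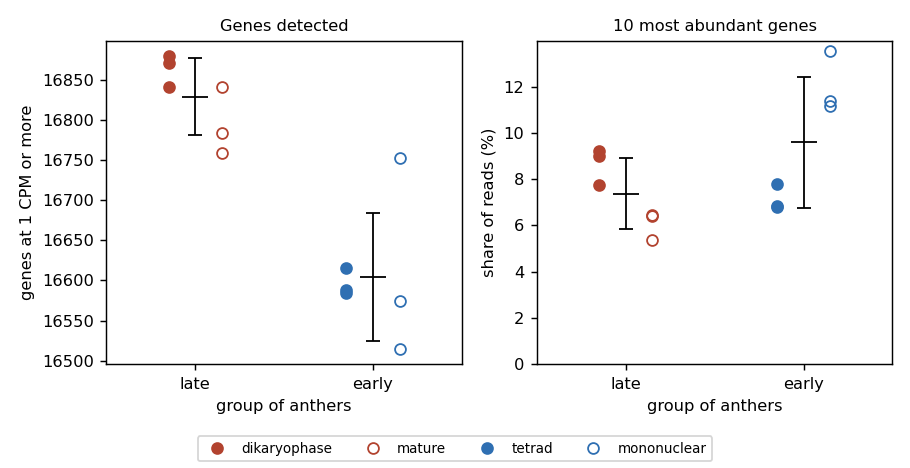
Points are libraries, late on the left and early on the right of each panel, and lines with bars are the mean and SD of 6 libraries. The left axis counts genes at 1 CPM or more and does not start at 0, with late libraries at 16759 to 16880 and early ones at 16514 to 16753. The right panel gives the share of reads (%) in the 10 most abundant genes, where the groups overlap.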

How the data were processed

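The authors deposited 1 table with a log2 value per gene and library. How reads were aligned and counted, on which build and annotation and with which strand setting is not given in the sources used here. Levels of near-identical copies and of overlapping genes are therefore uncertain. In every library 100% of the values, back-transformed and less a pseudocount of 1, were whole multiples of a single step (tolerance 0.01 reads). Reads per gene and CPM were computed from these steps. Sequencing was on an Illumina HiSeq, per the labels' protocols.

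A gene was tested if 3 or more libraries had it at 1 CPM or more, which kept at least 99.9% of the reads of a library. limma (3.58.1, R 4.3.3) was fitted to the deposited log2 values of all 12 libraries, with a mean per stage. The fit had 8 residual degrees of freedom and a variance trend. The deposited values are not counts, and limma-voom on the reads recovered from them was run as an alternative. P-values were adjusted by Benjamini-Hochberg over all tested genes. The pseudocount draws changes of genes with few or no reads in a group towards 0. On simulated counts for 17484 genes, 97.0% of 100 genes changed 4-fold between late and early libraries were called. Of 100 genes changed 2-fold 49.0% were called, and of 17284 unchanged genes 2 were. The simulation gave each gene 1 level per group and drew libraries independently. Most called genes of these data were not so steady within groups, so these rates need not hold for them. A 2-fold change lies at the fold threshold itself.

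The comparison, gene rule and lists were chosen with earlier results of these data known. Genes described singly were, among called genes at 10 CPM or more with groups that did not overlap, the 6 with the largest change, the 4 most abundant and the 3 with the largest change among those steady within groups, in each direction. To these came uncalled genes with a log2 fold change within 0.1 of 0, the 3 with the largest F at 10 CPM or more and the 2 most abundant. Since IDs are not paired with names, only 2 IDs per direction are printed, and neither lists by gene description nor marker lists could be computed. Alternatives covered scaling, filter, pseudocount, threshold, test, a replicate block and each library left out.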

Additional observations from a re-analysis of the deposited data

Results flagged for a closer look

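Values of the 6 genes given by ID and of both library measures were examined for a library far from the other 5 of its group, 16 groups in all, and 2 were found. Chance alone gives about 1 in 20 where the other libraries have a spread. In both groups found, the other 5 were at 0, so this rate does not apply to them. For Cla004436, mononuclear replicate 2 stood at a log2 value of 6.34 while the other 5 early libraries were at 0. For Cla006625, tetrad replicate 3 stood at a log2 value of 3.15 while the other 5 early libraries were at 0, which rests on 8 reads. The cause was not tested in either gene.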

How the results depend on the processing

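Counts of called genes moved by over 1.5 times only with a changed call rule: limma treat at a log2 fold change of 1 called 1225 genes (717 higher, 508 lower), adjusted p alone 7154 (3508 and 3646), and a log2 fold change of at least 2 called 1175 (715 and 460). With the other scalings or limma-voom 2367 to 2396 genes were called, and 94.1% to 99.7% of the 2391 calls were kept. Leaving out each library in turn gave 2272 to 2442 calls and kept 93.2% to 97.1%. With mononuclear replicate 2, dikaryophase replicate 3 and mature replicate 3 left out together, an alternative chosen after seeing the data, 2413 were called and 90.3% kept. Without a stage term 2119 were called. Deviations of same-numbered libraries from their stage means had r from -0.114 to 0.364 over 18 pairs, of which 6 were over 0.1. Pairs with different numbers had r from -0.296 to 0.282. Replicates 3 of the mononuclear, dikaryophase and mature stages had r of 0.164 to 0.364 with each other. Tetrad replicate 3 had r from -0.058 to -0.012 with them. Of 12 libraries, 4 correlated best with their own number. Whether the numbers mark a shared origin was not tested, and they were not taken as pairing. With the replicate block 2396 genes were called. Genes off in early and on in late anthers numbered 0 to 20 when libraries were left out and 5 with up to 10 reads allowed as off. Rising genes with the last step largest numbered 163 to 322. The difference in the share of the most abundant genes was -4.35 points for 100 genes and reversed, to 0.597, for 1. Of 702 values of the 26 called genes described singly, 0 changed sign and 701 stayed called; the other gene lay under a log2 fold change of 2. The 5 uncalled ones stayed uncalled in all 135 values, of which 11, in 4 genes, changed sign. Genes that reached 1 CPM in fewer than 3 libraries were not tested.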
